A study of Mus musculus with 2 samples.

Results

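The dual-specificity phosphatases that act on mitogen-activated protein (MAP) kinases were followed in mouse embryonic fibroblasts (MEFs, connective tissue cells cultured from embryos) labelled as lacking the Hippo pathway kinase Lats2 (LATS2-/-, KO) and in wild-type cells (LATS2+/+, WT). The members were 10 named genes (Dusp1, Dusp2, Dusp4, Dusp5, Dusp6, Dusp8, Dusp9, Dusp10, Dusp14 and Dusp16), and they were found as the probes that carry these names in the array files. Of the 10, 9 had a probe, out of 27579 gene names with a usable probe, and 13 probes represented them. Dusp5 was not analysed here, since no probe had its name or a RefSeq accession of it. Both genotypes were of the C57BL/6J strain and neither was treated. The age of the embryos, how many were used and whether they were pooled are not given in the sources used here. On 1 array the KO RNA carried the red dye Cy5 and the WT RNA the green dye Cy3, and on the other array the dyes were exchanged. The pair was taken as a dye swap of the same RNAs and counted as 1 replicate, so that no difference between the genotypes has a replicate check, and genotype, culture and RNA preparation cannot be told apart.

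MAP kinases such as ERK, JNK and p38 are switched on when a threonine and a tyrosine in their activation loop are phosphorylated. The dual-specificity phosphatases remove both phosphates and so end the signal. Many of them are themselves transcribed in response to MAP kinase activity, which makes them a negative feedback, and family members differ in the kinase they prefer and in whether they sit in the nucleus or the cytoplasm.

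The targeted gene was read first as a check of the labels. Of 4 Lats2 probes, 3 had a log2 ratio of KO over WT between 0.56 and 0.63, and the remaining one had -0.35. Most of its probes thus did not show less Lats2 RNA in the KO-labelled RNA. Whether the probes lie in the targeted part of the gene was not analysed, so they cannot settle the labels. The RNAs are named by their labels here, and each direction below rests on those labels. The arrays held 41174 gene probes each and correlated with Pearson's r of 0.937 over the 22357 probes well above background in both RNAs, a value across probes, which are not independent. A probe's log2 ratio varied between the arrays with an SD of 0.133, and the mean of both with 0.0943. With the pair taken as a dye swap of the same RNAs, this spread is that of hybridisation and dye, not of cells. Of the fibroblast markers, 12 of 12 with a probe were well above background in at least 1 of the RNAs, with a median log2 ratio of -0.43. The probe of Vim was so in the WT-labelled RNA alone. The counts were 2 of 7 for epithelial, 0 of 6 for endothelial, 4 of 7 for neural, 1 of 6 for skeletal muscle and 4 of 4 for smooth muscle markers, with Cnn1 called lower in the last list. The other smooth muscle markers, not called, stood at 0.79 (Acta2), 0.13 (Tagln) and -0.46 (Myh11). The 3 probes of Acta2 ran from -0.64 to 0.93. The haematopoietic and macrophage list had 4 of 7 above background, with Lyz2 called higher and Cd14 called lower. The 3 marker genes called are named after their values were seen. Its summed signal in Cy5 was 2205 units in the KO-labelled RNA and 1448 in the WT-labelled RNA, and in Cy3 916 and 610, with Ptprc, its pan-leukocyte marker, not well above background. Without Lyz2, whose other probe had a log2 ratio of 0.13, the remaining 6 markers summed the other way, to 294 and 585 units in Cy5. Cd14 alone gave 161 and 487 of these units. Apart from Lyz2 and Cd14, the markers well above background were Cd68, at 0.14, and Csf1r, at -0.05. The part of such cells in the results was not tested.

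Dusp4 was 4.24-fold higher and Dusp6 2.13-fold lower in the KO-labelled RNA, and these were the only members past 2-fold on each array. Dusp8 and Dusp9 stood at about 66% of the WT-labelled RNA. The remaining 5 members had mean log2 ratios between -0.21 and 0.22. A call required 2-fold (a log2 ratio of 1 or more in size) with the same sign on the arrays taken singly, and, on both, a probe well above background in whichever RNA held more of the transcript. Where a gene had several probes, the brightest one stood for it. By this rule 1 of the 9 members was called higher and 1 lower, beside 2.95% and 2.61% of the 15877 genes well above background. At 1.5-fold the counts for the members were again 1 and 1, beside 7.04% and 7.17% of all genes. The median log2 ratio of the 9 members was -0.17 (range -1.09 to 2.08), and that of all genes was -0.004. The median size of the ratio was 0.22 in the members and 0.23 in all genes. All 13 member probes were well above background in both RNAs on both arrays.

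**Figure D1:**
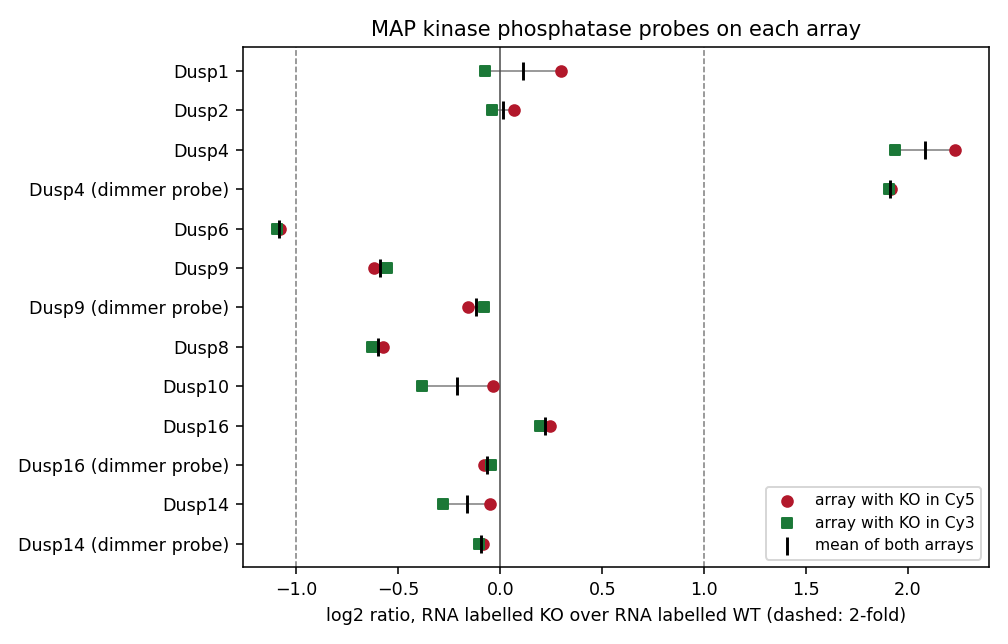
Log2 ratio of the KO-labelled RNA over the WT-labelled RNA (x axis) for each of the 13 member probes (rows), with a circle for the array with KO in Cy5, a square for the array with KO in Cy3 and a bar for their mean. Both Dusp4 probes sit between 1.91 and 2.23, Dusp6 sits at -1.08 and -1.10, and the other probes lie inside the dashed 2-fold lines.

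The promoters of 3 members are shown side by side: Dusp6, the member called lower, Dusp8, which was lower by less, and Dusp1, an inducible member near 0. Promoter windows from RefSeq (build GRCm38.p6, from 250 bases before to 50 after the transcription start) were held for 8 of the 10 members, not for Dusp4 and Dusp9. The windows were searched on both strands for the cAMP response element (CRE, TGACGTCA), the AP-1 site TGANTCA, the TEAD site GGAATG, the ETS site CCGGAAG and the Sp1 site GGGCGG. None of these motifs can hold another of them. The bases before the start are given from 5′ to 3′ on the coding strand, 250 for each gene, with every CRE in capitals. Dusp1 lies at chr17:26508473-26508722 (minus strand), Dusp6 at chr10:99262981-99263230 (plus strand) and Dusp8 at chr7:142095285-142095534 (minus strand).
Dusp1: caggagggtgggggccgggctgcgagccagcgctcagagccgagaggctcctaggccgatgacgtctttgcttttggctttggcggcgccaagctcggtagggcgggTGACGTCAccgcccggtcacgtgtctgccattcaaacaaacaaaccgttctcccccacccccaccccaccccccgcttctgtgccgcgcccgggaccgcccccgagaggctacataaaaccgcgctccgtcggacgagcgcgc
Dusp6: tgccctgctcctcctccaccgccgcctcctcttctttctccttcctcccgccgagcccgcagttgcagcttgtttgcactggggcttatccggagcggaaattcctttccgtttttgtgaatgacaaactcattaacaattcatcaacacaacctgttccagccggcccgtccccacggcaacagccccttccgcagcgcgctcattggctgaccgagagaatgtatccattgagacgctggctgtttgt
Dusp8: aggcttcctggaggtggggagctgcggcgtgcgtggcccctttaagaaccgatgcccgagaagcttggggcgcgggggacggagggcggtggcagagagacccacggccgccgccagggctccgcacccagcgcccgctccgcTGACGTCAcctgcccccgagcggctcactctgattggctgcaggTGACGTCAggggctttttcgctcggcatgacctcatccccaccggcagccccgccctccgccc
Dusp8 held 2 CREs, which begin 107 and 63 bases before the start, and Dusp1 held 1, which begins 143 bases before it. A CRE was present in 1.79% of all 32851 windows and at least 2 of them in 0.0396%. The Sp1 motif was found in 7 of the 8 members, Dusp6 being the exception, against 35.7% of all windows. It occurred 5 times in Dusp16, 3 times each in Dusp1, Dusp2, Dusp8 and Dusp10, and 1 time each in Dusp5 and Dusp14. Base composition differed as well: the share of G and C ran from 57.3% in Dusp6 to 73.3% in Dusp8, beside a median of 52.7% over all windows. The AP-1, TEAD and ETS motifs, present in 7.81%, 14.7% and 8.86% of all windows, were in none of the 8. A match is a description of letters and not a site of binding. The log2 ratios of Dusp8 and Dusp1, both with a CRE, were -0.60 and 0.11, and that of Dusp6, with none of the motifs, was -1.09.

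The inducible nuclear phosphatases were compared first. Dusp4, which acts on ERK, JNK and p38 in the nucleus, had the largest ratio of the family. Its brighter probe (chr8:36290269-36290328; probe positions are those of the array files, build NCBI36/mm8) gave background-subtracted signals of 1460 units in the KO-labelled RNA and 278 units in the WT-labelled RNA when each was in Cy5, and of 526 and 94.1 units when each was in Cy3. The KO-labelled RNA was the higher one in both dyes. The normalised log2 ratios of the arrays with KO in Cy5 and in Cy3 were 2.23 and 1.94, a mean of 2.08 ± 0.21 (SD between the 2 arrays). This was 14.6 times the SD of a probe of like intensity, 0.143, and 0.743% of all genes well above background had a higher ratio. The second Dusp4 probe (chr8:36287508-36287567), which begins 2761 bases away, was dimmer and repeated the difference. It read 408 and 51.5 units in Cy5 and 175 and 15.4 units in Cy3 for the KO-labelled and WT-labelled RNAs. Its log2 ratio was 1.91 on each array, or 3.76-fold. With the scanner software's own ratio, which lacks the offset of 50 units added in the background correction here, the mean log2 ratios of the brighter and the dimmer probe were 2.46 and 3.45. The brighter probe was designed on a cDNA clone that the reference table did not hold, whereas the second matched the RefSeq transcript of Dusp4.

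Dusp1, the immediate early phosphatase of p38, JNK and ERK, differed little between the RNAs. Its probe (chr17:26233451-26233508, minus strand) read 7152 units in the KO-labelled RNA and 6475 in the WT-labelled RNA in Cy5, and 2411 and 2145 units in Cy3. The arrays gave log2 ratios of 0.30 and -0.08, which differ in sign, and their mean of 0.11 was smaller than the SD between them, 0.26. No difference in Dusp1 was detectable on these arrays. Dusp2, a nuclear phosphatase first found in activated lymphocytes, read 102 and 106 units in Cy5 and 42.1 and 42.9 units in Cy3 (chr2:127029635-127029694). Its log2 ratios of 0.07 and -0.04 also differed in sign. Thus Dusp4 alone of the 3 measured nuclear inducible members stood apart between the RNAs.

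**Figure D2:**
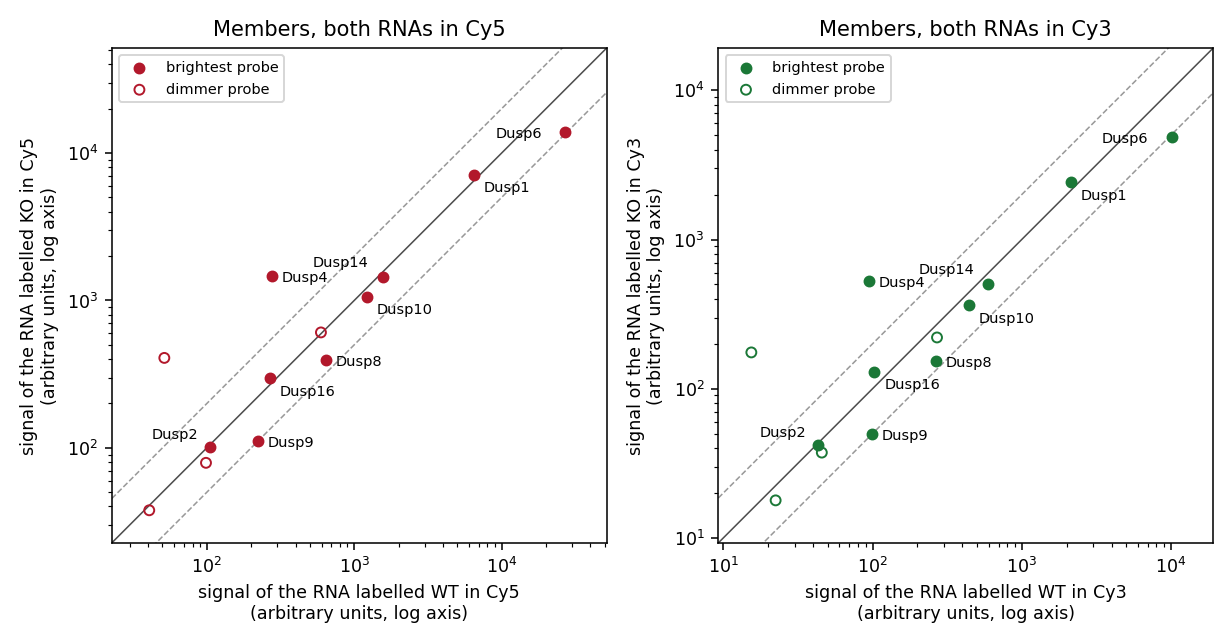
Background-subtracted signal of each member probe in the KO-labelled RNA (y axis) against the WT-labelled RNA (x axis), in arbitrary units on log axes, with both RNAs read in Cy5 on the left and both in Cy3 on the right. The solid line marks equal signal and the dashed lines 2-fold: Dusp4 lies above the upper line in both dyes (1460 against 278 units in Cy5), and Dusp6 lies at the lower line (13960 against 27134 units in Cy5).

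Of the cytoplasmic phosphatases of ERK, Dusp6 was called lower and Dusp9 was not called. Dusp6 is held in the cytoplasm, binds ERK and is a widely used readout of ERK activity. Its probe (chr10:98697039-98697098) read 13960 units in the KO-labelled RNA and 27134 in the WT-labelled RNA in Cy5, and 4889 and 10099 units in Cy3. The KO-labelled RNA was the lower one in both dyes. The log2 ratios of -1.08 and -1.10 gave a mean of -1.09 ± 0.01 (SD between the 2 arrays), which put the KO-labelled RNA at 47.0% of the WT-labelled one. This was 7.23 times the SD of a probe of like intensity, and 2.56% of all genes had a lower ratio. Dusp6 passed the threshold by little. With median centring of each array in place of loess, its mean ratio was -0.99 and it was no longer called.

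Dusp9, a further ERK phosphatase of the cytoplasm known for its role in placenta, was read by 2 probes on chromosome X that differed. The brighter (chrX:69895848-69895907) gave 112 units in the KO-labelled RNA and 224 in the WT-labelled RNA in Cy5, and 49.5 and 98.4 units in Cy3. Its log2 ratios were -0.62 and -0.56, a mean of -0.59 or 66.5%. The dimmer probe (chrX:69895058-69895117), which begins 790 bases away, read 79.1 and 98.7 units in Cy5 and 37.3 and 45.7 units in Cy3, with log2 ratios of -0.16 and -0.08. Both probes were on the lower side on each array, and their means differed by 0.47. With the scanner software's own ratio, the brighter probe stood at -0.95 and the dimmer at -0.41. With an offset of 10 in place of 50, the brighter stood at -0.79. The cause of these shifts was not tested.

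Of the phosphatases that prefer JNK and p38, Dusp8 was the one with a sizeable ratio. Its probe (chr7:141891019-141891078, minus strand) read 395 units in the KO-labelled RNA and 639 in the WT-labelled RNA in Cy5, and 153 and 267 units in Cy3. The log2 ratios were -0.57 and -0.63, a mean of -0.60 or 65.9%, and 8.60% of all genes had a lower ratio. Dusp8 and Dusp9 each reached 1.5-fold on 1 array and missed it on the other. Dusp10, which acts on JNK and p38 in both compartments, had a probe (chr1:185775985-185776044) with 1063 and 1217 units in Cy5 and 363 and 442 in Cy3. Its log2 ratios were -0.04 and -0.38, with a mean of -0.21 that was smaller in size than the SD between the arrays, 0.25.

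Dusp16, a JNK phosphatase that shuttles between nucleus and cytoplasm, had 2 probes that disagreed in sign. The brighter (chr6:134681331-134681371, minus strand), designed on a sequence that the reference table did not hold, read 297 and 267 units in Cy5 and 130 and 103 units in Cy3, with log2 ratios of 0.25 and 0.19. The dimmer (chr6:134683678-134683737), which begins 2347 bases away, read 37.7 and 40.7 units in Cy5 and 17.8 and 22.4 in Cy3, with log2 ratios of -0.08 and -0.05. No direction is given for Dusp16. Dusp14, a small atypical phosphatase without the kinase-binding domain of the others, was read by 2 probes 677 bases apart on chromosome 11. The brighter (chr11:83864307-83864366) gave 1449 and 1564 units in Cy5 and 505 and 599 units in Cy3, with a mean log2 ratio of -0.17 (-0.05 and -0.28). The dimmer (chr11:83864984-83865043) gave -0.09. These means were 1.12 and 0.650 times the SD of probes of like intensity between the arrays.

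**Figure D3:**
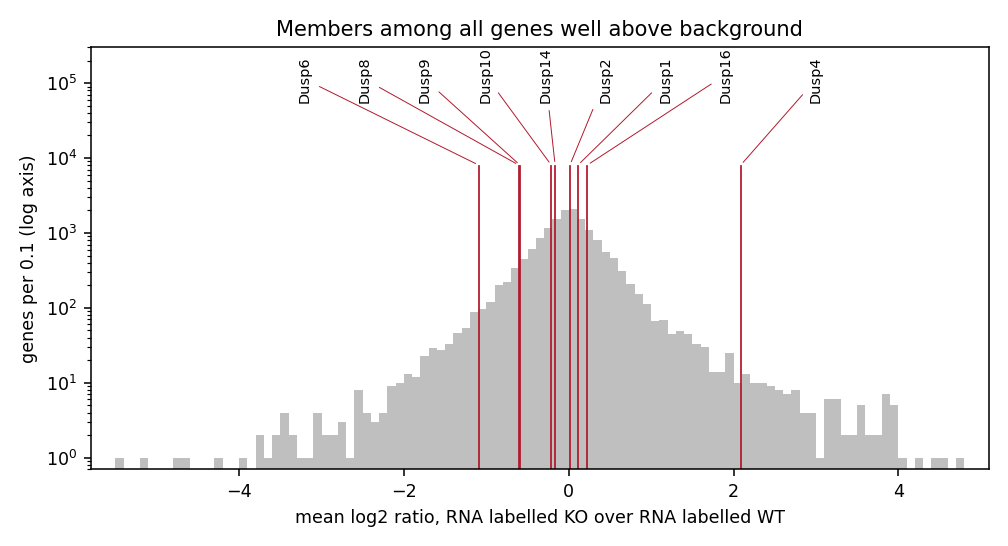
Mean log2 ratio of the KO-labelled RNA over the WT-labelled RNA (x axis, bins of 0.1) for the 15877 genes well above background, counted on a log axis (y axis), with a red line at the value of each of the 9 members. Dusp4 lies in the upper tail, where 0.743% of genes are higher, Dusp6 lies in the lower tail, where 2.56% are lower, and 5 members lie between -0.21 and 0.22.

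Set in order of the mean log2 ratio, the members ran from Dusp6 (-1.09) through Dusp8 (-0.60), Dusp9 (-0.59), Dusp10 (-0.21), Dusp14 (-0.17), Dusp2 (0.01), Dusp1 (0.11) and Dusp16 (0.22) to Dusp4 (2.08). The order is one of differences between the RNAs, not of levels, and uses 1 probe a gene. By its other probe, Dusp9 (-0.12) would stand above Dusp10 and Dusp14, and Dusp16 (-0.06) below Dusp2. With the brightest probes, the steps from Dusp6 to Dusp8, from Dusp9 to Dusp10, from Dusp14 to Dusp2 and from Dusp16 to Dusp4 were larger than 0.133, which is also the SD of the difference between 2 means of both arrays. The other neighbours in the order did not differ beyond it. By its other probe (-0.09), Dusp14 would also lie within 0.133 of Dusp2. On both arrays 5 members were below 0 and 2 were above 0.

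**Figure D4:**
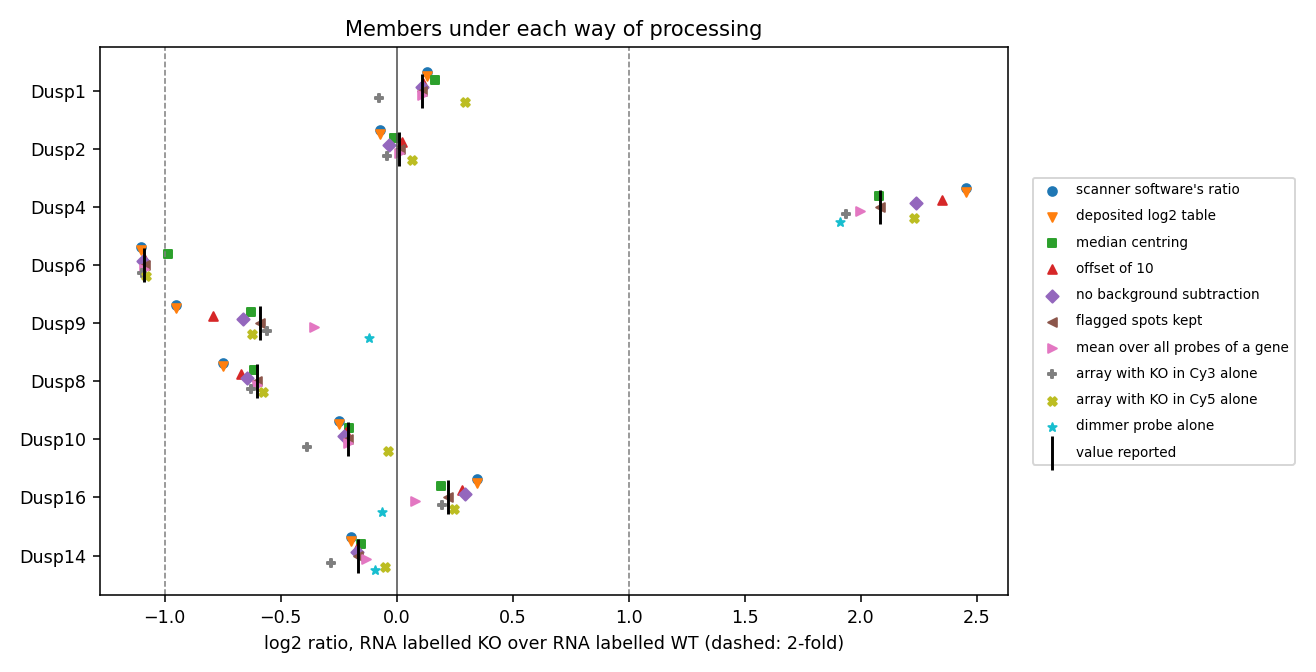
Log2 ratio of the KO-labelled RNA over the WT-labelled RNA (x axis) of the 9 members (rows) under each way of processing, with a black bar for the value reported. Among the points drawn, Dusp4 lies between 1.91 and 2.46 and Dusp6 between -1.10 and -0.99. Dusp9 spreads from -0.95 to -0.12 over its probes and settings, and Dusp1, Dusp2 and Dusp16 fall on both sides of 0. A dimmer probe by itself is drawn for the reported processing only. The value of the dimmer Dusp4 probe with the scanner software's ratio, 3.45, is therefore not shown.

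The other parts of the pathway were read from lists of genes, as a setting for the members, with no test of the lists and with medians over all genes that had a probe. Of 14 MAP kinases, 1 was called higher and none lower, with a median log2 ratio of -0.002. The one called was Mapk13 (p38 delta), at 1.28 (1.24 and 1.32). Among the kinases that the members switch off, Mapk3 (ERK1) stood at 0.13, Mapk14 (p38 alpha) at 0.08 and Mapk8 (JNK1) at -0.55. None of the 7 MAP kinase kinases was called (median -0.14), and the largest ratio there was that of Map2k6, an activator of p38, at -0.67. The 3 probes of Map2k6 ran from -0.67 to -0.02. The one used was dim, with 42.7 units in the KO-labelled RNA and 141 in the WT-labelled RNA in Cy5. None of the 18 MAP kinase kinase kinases was called (median -0.15). Araf, a RAF family kinase, came nearest at 2.01-fold higher, since its ratio on the array with KO in Cy5 was just short of the threshold, and its other probe gave a log2 ratio of -0.09. With the scanner software's ratio, the deposited table or an offset of 10, 1 MAP kinase kinase was called lower and 1 MAP kinase kinase kinase higher.

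Among 18 other dual-specificity phosphatases, 14 were well above background, 1 was called higher and 1 lower, with a median of 0.26. The one called lower was Dusp7, the closest relative of Dusp6 and likewise a cytoplasmic ERK phosphatase. It read 3799 units in the KO-labelled RNA and 7514 in the WT-labelled RNA in Cy5, and 1440 and 3382 units in Cy3. Its log2 ratios were -1.24 and -1.02, a mean of -1.13 or 45.7%. Dusp7 was no longer called with the scanner software's ratio, the deposited table, median centring or the methods' t-test, which each left 0 genes of this list called lower. The one called higher was Dusp27, an atypical gene, at 1.28. It lost the call with the mean over its probes and in the methods' t-test. Its probe stood clear of background in the WT-labelled RNA on only 1 array, and its other probe gave 0.70. Of 9 phosphatases of other families that act on MAP kinases, Ppm1l was called lower (-1.27), while another of its 3 probes gave -0.26, and none was called higher (median -0.19). The count called lower was 0 with median centring, with the mean of a gene's probes and in the methods' t-test.

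Of 7 Sprouty and Spred genes, a further class of feedback inhibitors of ERK signalling, none was called (median 0.12). The largest was Spry1, at 0.90 (1.04 and 0.77). Of 18 genes known to respond to ERK, 6 were called lower and 1 higher, beside 2.61% and 2.95% of all genes well above background. The median of the 18 was 0.01. This list was chosen with earlier results of these data known, immediate early genes included, so its counts are only a description. The lower ones included the immediate early transcription factors Egr1 (-3.95), Fos (-3.73) and Fosb (-3.16) and the early gene Ier2 (-1.72). Junb (-1.51) and Egr2 (-1.43), also lower, and Ier3 (1.13), which was higher, are named here after their values were seen. With median centring the counts were 3 lower and 0 higher, and in the methods' t-test the count higher was 0. Egr1 read 1236 units in the KO-labelled RNA and 19577 in the WT-labelled RNA in Cy5. The other 11 genes of this list, which were not called, ran from Jun, at 49.9% of the WT-labelled RNA, to Fosl1, at 164%. Dusp1, which is commonly induced together with Fos and Egr1, stood at 0.11. Of 17 kinases and scaffolds downstream of or around MAP kinases, 16 had a probe and none was called (median -0.08). The largest ratio there was 0.45, in Rps6ka5 (MSK1).

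**Figure D5:**
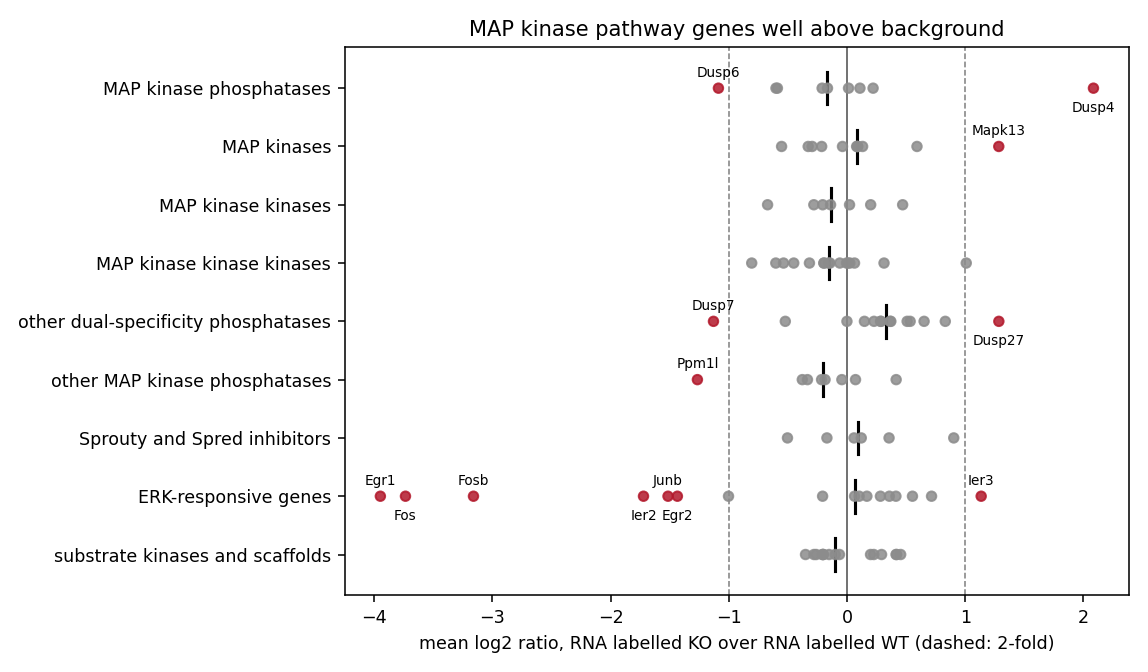
Mean log2 ratio of the KO-labelled RNA over the WT-labelled RNA (x axis) for the members and for the genes of each pathway list that were well above background (rows), with a black bar at the median of those genes and the genes called in red with their names. The members span -1.09 to 2.08, and the list of ERK-responsive genes reaches furthest to the left, with Egr1 at -3.95.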

How the data were processed

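RNA from MEFs labelled Lats2 KO and WT was hybridised to 2 two-colour Agilent arrays with the dyes exchanged. Per the labels, the scans were read with Agilent Feature Extraction 10.5.1.1. The authors deposited the mean signal and local background of each spot as intensity, with the scanner software's log10 ratio of Cy5 over Cy3. They also deposited a table of log2 ratios. Its columns correlated at 0.9999 and 0.9996 with the scanner's ratio turned to KO over WT, with medians of -0.018 and 0.037. Of the probes, 87.0% and 80.5% lay within 0.01 of that ratio, and the largest differences were 0.50 and 0.25. The table was thus read as log2 ratios of the KO-labelled over the WT-labelled RNA, a direction that rests on the labels. How its values were computed from the scans is not given in the sources used here.

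Intensities were background corrected (normexp, offset 50) and normalised by loess within each array with limma 3.58.1 in R 4.3.3. Control spots and flagged outliers (390 and 378 of 43379 gene spots) were left out, spots of a probe were averaged, and the second array was turned. No spot was saturated. Both arrays lay on 1 slide. The number of arrays limits the precision, and no test of the genotypes was possible. The signals quoted are background-subtracted and not scaled between arrays. A probe spotted repeatedly needed the software's flag for signal well above background in a share of 0.5 or more of its spots. Further steps used pandas 2.3.3, numpy 2.4.6, scipy 1.17.1 and matplotlib 3.10.9 under Python 3.11.15. In a simulated dye swap of 41174 probes, the rule found 100% of 200 changed probes and made 0 false calls, with a median estimate of 0.842 of the truth. How the rule fares on ratios near 2-fold, such as that of Dusp6, was not tested. Its requirement of signal well above background was not tested there either.

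The members and the lists were chosen with earlier results of these data known, immediate early genes included. All members were named with every probe. Of each list, the called genes were named (the 4 largest where more were called), and where none was called the largest; others named are given as context or as picked after their values were seen. Probe sequences were not used here. Some values of single list genes are not reported here. Place within exons was not analysed. Alternatives were 16 other settings, given in the closing section.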

Additional observations from a re-analysis of the deposited data

How the results depend on the processing

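No paired analysis was possible because both arrays hold the same pair of RNAs, with 1 replicate. Dusp4 was called higher and Dusp6 lower (1 to 1 members each way) under the scanner software's ratio, an offset of 10 and no background subtraction. The same held with flagged spots kept, the mean of a gene's probes, the methods' t-test and limma. The deposited table, whose values nearly repeat the scanner software's ratio, gave the same calls. Each array alone, 1.5-fold and no filter on dim probes had to return Dusp4 and Dusp6, so they are no further check. The rule already required 2-fold on each array, and every member probe was well above background. With median centring 0 members were called lower. The methods' t-test after Benjamini-Hochberg called 0 members and 0 probes in either direction. With the arrays taken as a dye swap of the same RNAs, these tests measure the spread between hybridisations alone. Of all probes, 599 were called higher and 503 lower. The counts were 1284 and 1224 with the scanner software's ratio and with the deposited table, 321 and 169 with median centring, and 1480 and 1515 at 1.5-fold. Single arrays gave 670 to 715 higher and 584 to 666 lower. An offset of 10 gave 859 and 739. Calls were 54.4% higher in the reported setting and 65.5% with median centring. Of 304 recomputed values of the pathway lists, 47 moved. The cause of these shifts was not tested. The median of the members ran from -0.28 to -0.04 on single arrays. Of 85 recomputed member values, 65 moved by less than the SD between arrays and 20 by more, and 7 changed sign, 5 of them in Dusp2 and 1 each in Dusp1 and Dusp16. The furthest shift of the median over the probes well above background was -0.0125, with the scanner software's ratio and with the deposited table. Depth in the sense of counts does not apply; every member probe was above background.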
